A study of Mus musculus with 2 samples.

Results

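The genes described here are the 9 neighbouring homeobox genes Hoxb9 to Hoxb1 of the Hoxb cluster, whose row lies on mouse chromosome 11 at chr11:96271457-96368256 (mm10, GENCODE M21). Hoxb13, which stands apart beyond Hoxb9, is given with the flanks, and cluster below means the row from Hoxb9 to Hoxb1. The accessibility of the row was compared between aged and young hematopoietic stem cells (HSCs), the cells at the origin of all blood lineages, by single-cell ATAC-seq, an assay in which a transposase cuts open chromatin and each cut fragment carries the barcode of its nucleus. The 9 genes were taken by name, out of 21755 protein-coding genes measured and out of 39 Hox genes. Fragments were counted within 500 bp on either side of the annotated 5' end of each gene, called the start-site window below, and in 500-bp bins over the cluster and 200 kb on either side.

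Both libraries were made from bone marrow HSCs of C57BL/6 mice (female, from the study's methods) with no genetic change or treatment named. The young library came from mice of 10 weeks (10-week-old) and the aged library from mice of 20 months (20-month-old). HSCs had been sorted as Lin- Sca-1+ c-kit+ cells that were also CD34-, CD150+, CD48- and Flt3-, and were labelled IL-7-, where the antibody of the study's lineage mix was to the receptor IL-7Rα. There was 1 library per age and the number of mice pooled in each was not given in the sources used here, so how far animals of an age vary is not known from these data. No test between ages was made, and every interval below is a 95% interval of counting error only.

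Hox genes encode transcription factors that bind DNA together with partners of the TALE class such as PBX and MEIS proteins. They lie in 4 clusters and are used along the body axis in the order in which they stand on the chromosome, the posterior end of the row being Hoxb9 and the anterior end Hoxb1. In blood, genes of the Hoxa and Hoxb clusters are used in stem and progenitor cells and are mostly silenced as cells mature. Forced expression of Hoxb4 expands HSCs, and a reporter of Hoxb5 marks HSCs with long-term activity.

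After keeping barcodes called as cells with 3000 to 20000 in-peak fragments, 4887 young and 3405 aged HSCs remained, with 50069575 and 38663214 unique fragments and a median of 9890 and 11020 fragments per cell. Values are given as fragments per 1000000 fragments in peaks (FPM), with 34673048 young and 26165379 aged fragments in peaks. Fragments shorter than the DNA of a nucleosome made up 59.8% of young and 55.0% of aged fragments, and 4.42% of young and 6.73% of aged cells were marked as likely doublets and kept. The libraries shared 26 barcode sequences among kept cells. Start-site windows of 8 HSC marker genes summed to 141 FPM in young and 142 FPM in aged HSCs, against 3.63 and 4.13 FPM for 4 B cell markers, 4.70 and 2.33 FPM for 4 T cell markers, 1.99 and 2.94 FPM for 4 markers of granulocytes and monocytes, 11.5 and 10.5 FPM for 4 erythroid markers and 89.8 and 78.3 FPM for 4 megakaryocyte markers. Per gene, megakaryocyte markers stood higher, with medians of 25.9 FPM in young and 21.7 FPM in aged HSCs against 13.2 and 13.7 FPM for HSC markers. Medians of the remaining lists were 1.36 FPM or less in both libraries. Among the defining markers, Cd3e and S100a8 held 0.317 and 0.346 FPM in young HSCs, and 0.344 and 0.535 FPM in aged HSCs. Past 1.5-fold, 2 T cell and 3 erythroid markers were lower and 2 markers of granulocytes and monocytes higher in the aged library, all of them under 5 FPM, where 10.8% of all protein-coding windows with at least 20 fragments were lower and 19.0% higher. The T cell markers were Cd3g (20 and 7 fragments) and Cd5 (122 and 41), and the part of other cell types in the differences below was not tested.

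The sequences below are shown because their windows or peaks stood at the ends of the range of ratios or levels in the cluster. They are the promoters of Hoxb8, whose start-site window had the highest ratio but held no fragments above the local density, and of Hoxb4, whose window had the lowest, and neither printed stretch overlapped a called peak. They are followed by the peak with the highest ratio among cluster peaks of at least 100 fragments and the central 300 bases of the peak with the most fragments. Promoters (RefSeq, GRCm38.p6) run from 250 bases before to 50 bases after the start that the promoter table places, which for Hoxb8 and Hoxb4 was the GENCODE start used here, and of the 9 genes, Hoxb8, Hoxb4 and Hoxb1 had an entry in it. All 4 are written for the plus strand, on which every Hoxb gene is read. Capitals mark matches on either strand to the letters TTTATNG (posterior HOX and CDX proteins), CCAAT (NF-Y), GGGCGG (SP and KLF proteins), CACGTG (USF), AGATAA (read by GATA factors), TGTGGT (RUNX), TGANTCA (AP-1), AGGAAGT (ETS), TGACAG (MEIS) and TGATTNAT (HOX with PBX).
Hoxb8 promoter, chr11:96281655-96281954: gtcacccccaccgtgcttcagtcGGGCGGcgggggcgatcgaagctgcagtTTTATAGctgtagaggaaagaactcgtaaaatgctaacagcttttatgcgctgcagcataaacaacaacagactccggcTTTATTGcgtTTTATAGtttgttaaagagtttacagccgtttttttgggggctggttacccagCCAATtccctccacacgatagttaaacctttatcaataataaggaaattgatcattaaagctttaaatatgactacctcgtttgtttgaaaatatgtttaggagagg
Hoxb4 promoter, chr11:96318017-96318316: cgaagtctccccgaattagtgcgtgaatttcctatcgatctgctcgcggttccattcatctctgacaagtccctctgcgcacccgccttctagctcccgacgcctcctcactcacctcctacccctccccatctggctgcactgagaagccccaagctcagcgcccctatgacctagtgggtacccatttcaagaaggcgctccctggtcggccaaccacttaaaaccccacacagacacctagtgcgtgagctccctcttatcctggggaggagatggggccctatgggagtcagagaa
Peak before Hoxb7, chr11:96285815-96285990: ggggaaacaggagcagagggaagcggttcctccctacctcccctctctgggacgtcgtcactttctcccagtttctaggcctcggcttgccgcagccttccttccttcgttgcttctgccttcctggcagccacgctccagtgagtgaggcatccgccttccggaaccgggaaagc
Peak between Hoxb5 and Hoxb4, chr11:96311765-96312064: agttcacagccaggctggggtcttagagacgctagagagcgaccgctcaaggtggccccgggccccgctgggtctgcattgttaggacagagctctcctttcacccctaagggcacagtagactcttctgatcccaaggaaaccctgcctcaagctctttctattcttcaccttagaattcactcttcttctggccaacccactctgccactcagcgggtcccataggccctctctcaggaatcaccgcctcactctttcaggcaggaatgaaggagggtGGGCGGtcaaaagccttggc

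The Hoxb8 promoter held 3 matches to the posterior HOX and CDX letters, 1 to the SP and KLF letters and 1 to CCAAT, with 13 CpG and a GC content of 42.3%. Of all 32851 promoters in the table, 10.9% held at least 1 match to TTTATNG, 37.4% to CCAAT and 35.7% to GGGCGG. The Hoxb4 promoter, with 14 CpG and 58.0% GC, and the peak before Hoxb7, with 10 CpG and 61.9% GC, held none of the searched letters, and the peak between Hoxb5 and Hoxb4 held 1 match to GGGCGG. A match is a run of letters and not evidence of binding. The cluster also holds the gene of a microRNA between Hoxb5 and Hoxb4, and another lies before Hoxb9. They are shown with their seeds (bases 2 to 8) in capitals, which differ from each other, because the start of each was counted below.
mmu-miR-10a-5p, chr11:96317186-96317208: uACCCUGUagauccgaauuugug
mmu-miR-196a-5p, chr11:96265187-96265208: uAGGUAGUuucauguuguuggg

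The start-site windows of the Hoxb genes were more accessible in aged than in young HSCs as a group. Over the 9 windows together the young library held 2671 fragments (77.0 FPM) and the aged library 2599 fragments (99.3 FPM), a log2 ratio of aged over young of 0.37 (interval 0.29 to 0.45). All 9 ratios lay above 0, and the intervals of 6 genes excluded 0 (Hoxb9, Hoxb8, Hoxb7, Hoxb6, Hoxb5 and Hoxb2), while those of Hoxb4, Hoxb3 and Hoxb1 included it. Over all protein-coding windows 10.1% of intervals lay above 0 and 22.6% below. The median ratio was 0.48, against -0.06 over the 16544 protein-coding windows with at least 20 fragments. By level, the median over these windows was 0.10 under 5 FPM, 0.07 from 5 to 15 FPM and -0.06 from 15 to 25 FPM. The medians of the Hoxb genes in these bands were 0.67, 0.56 and 0.13. Past 1.5-fold, 4 of the 9 genes were higher in aged HSCs (Hoxb8, Hoxb7, Hoxb6 and Hoxb3) and 0 were lower, where 5.25% of all protein-coding windows were higher and 2.51% lower. The call of Hoxb3 rests on 14 and 17 fragments, and without it the count was 3. The count was 1 in cells thinned to 3000 in-peak fragments (Hoxb8), 1 with RefSeq starts (Hoxb7), 2 with 1000 bp on either side (Hoxb8 and Hoxb7) and 2 after the local density was subtracted (Hoxb7 and Hoxb6). Windows of few fragments pass a fold more easily: among all protein-coding windows, 19.0% of those under 5 FPM, 4.79% of those from 5 to 15 FPM and 0.275% of those from 15 to 25 FPM were higher past 1.5-fold, against 2 of 3, 2 of 4 and 0 of 2 Hoxb genes in the same bands.

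**Figure D1:**
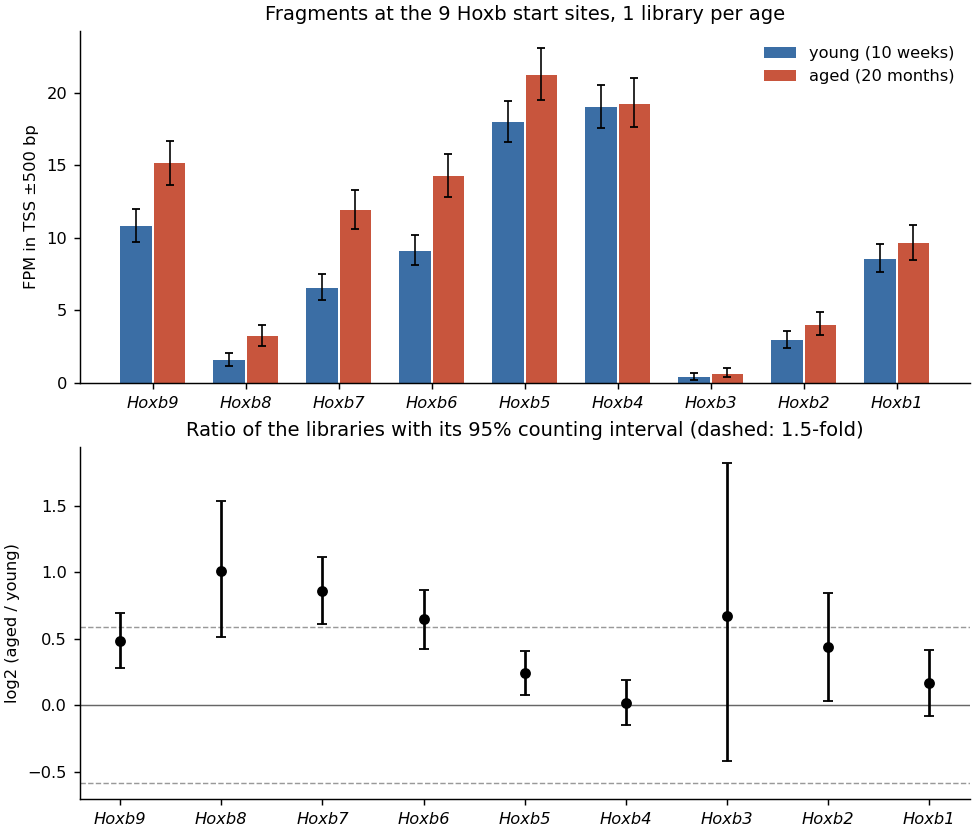
The upper panel gives the FPM in the start-site window (500 bp on either side of the 5' end) of each Hoxb gene in the young (blue) and aged (red) library, ordered from Hoxb9 to Hoxb1, with 95% Poisson intervals of counting error as error bars. The lower panel gives the log2 ratio of aged over young with its 95% interval and dashed lines at 1.5-fold, where Hoxb8, Hoxb7, Hoxb6 and, with a wide interval, Hoxb3 lie above the upper line and Hoxb4 lies at 0.02.

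At the posterior end, Hoxb9, which patterns the thoracic skeleton in the embryo, held 375 young fragments (10.8 FPM) and 396 aged fragments (15.1 FPM), a log2 ratio of 0.48 (interval 0.28 to 0.69). Hoxb8, which blocks differentiation of myeloid progenitors when overexpressed, held 55 young fragments (1.59 FPM) and 84 aged fragments (3.21 FPM), a log2 ratio of 1.01 (interval 0.51 to 1.53). Hoxb7, a factor that is overexpressed in several tumours, held 228 fragments (6.58 FPM) in the young library and 312 (11.9 FPM) in the aged library, a log2 ratio of 0.86 (interval 0.61 to 1.11). Hoxb6, whose forced expression immortalises marrow progenitors, held 316 young fragments (9.11 FPM) and 373 aged fragments (14.3 FPM), a log2 ratio of 0.64 (interval 0.43 to 0.87). In each of these 4 genes the interval of the ratio lay above 0. Over all protein-coding windows with at least 20 fragments, 10.1% of intervals lay above 0 and 22.6% below.

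The middle of the cluster holds the genes best known from HSC biology and had the highest levels of the 9 windows. Hoxb5 held 623 young fragments (17.97 FPM) and 556 aged fragments (21.2 FPM), a log2 ratio of 0.24 (interval 0.07 to 0.41), and the start of its coding transcript, 176 bp further on, gave 0.27. Hoxb4 held 660 young fragments (19.0 FPM) and 504 aged fragments (19.3 FPM), a log2 ratio of 0.02 (interval -0.15 to 0.19), and with 250 bp on either side the ratio was 0.34 (interval 0.01 to 0.66). Among all protein-coding windows, each of the 9 genes stood at a higher percentile in aged than in young HSCs. The share of all windows that rose in this way was not counted. Hoxb4 rose with a ratio of 0.02, so a rise alone is not a sign of a difference at the gene. Hoxb7 went from percentile 44.3 to 51.6, Hoxb6 from 48.4 to 54.8, Hoxb5 from 59.5 to 64.8, Hoxb9 from 50.7 to 56.0, Hoxb8 from 34.1 to 37.0 and Hoxb4 from 60.6 to 61.9.

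At the anterior end the start sites need care, because the annotated 5' end is not the most open start of each gene. Hoxb3, whose joint loss with Hoxb4 slows HSC proliferation, held 14 young fragments (0.404 FPM) and 17 aged fragments (0.650 FPM) at its annotated 5' end, a log2 ratio of 0.67 with an interval of -0.42 to 1.82. Hoxb2, a gene of hindbrain identity, held 103 young fragments (2.97 FPM) and 105 aged fragments (4.01 FPM), a log2 ratio of 0.43 (interval 0.03 to 0.84). That 5' end belongs to a transcript with a retained intron, and the start of the coding Hoxb2 transcript, 1106 bp further on, held 500 young fragments (14.4 FPM) and 516 aged fragments (19.7 FPM), a log2 ratio of 0.45 (interval 0.27 to 0.63). Hoxb1, a retinoic acid responsive gene of hindbrain identity, held 297 young fragments (8.57 FPM) and 252 aged fragments (9.63 FPM), a log2 ratio of 0.17 (interval -0.08 to 0.42).

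The choice of start site decided the values of Hoxb8 and Hoxb3, and that of Hoxb6 also depended on it. Another annotated start of a coding Hoxb6 transcript lies 4165 bp before Hoxb5. Its window held 290 young fragments (8.36 FPM) and 256 aged fragments (9.78 FPM), a log2 ratio of 0.23 (interval -0.02 to 0.47). The RefSeq start of Hoxb8 lies 2504 bp before the GENCODE start, and the window around it held 375 young fragments (10.8 FPM) and 350 aged fragments (13.4 FPM), a log2 ratio of 0.31 (interval 0.09 to 0.52). The RefSeq start of Hoxb3 lies 16225 bp before the GENCODE start, between Hoxb5 and Hoxb4, and its window held 296 young fragments (8.54 FPM) and 212 aged fragments (8.10 FPM), a log2 ratio of -0.07 (interval -0.34 to 0.18). With RefSeq starts, Hoxb7 had a ratio of 0.96 and was the only gene past 1.5-fold, Hoxb6 had 0.48 and Hoxb9 0.45. The density of fragments at 2 to 5 kb from the start was also subtracted. In either library, no fragments above it were then left at the annotated 5' ends of Hoxb8, Hoxb3 and Hoxb2. The Hoxb8 window thus held no more than the stretch around it. That stretch holds other called peaks, among them chr11:96278816-96279109 with 371 young and 344 aged fragments. The subtraction therefore does not place the window at the level of closed chromatin.

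In single cells the cluster was sparse at both ages. After a random draw of 3000 in-peak fragments from every cell (4789 young and 3271 aged cells, without 98 and 134 shallower ones), 21.2% of young cells (exact binomial interval 20.0 to 22.4) and 24.6% of aged cells (interval 23.1 to 26.1) held a fragment at a Hoxb start site, a difference of 3.39 percentage points (interval 1.499 to 5.29). Without thinning, where the aged cells are deeper, the shares were 40.3% and 49.8%. In thinned cells the share with a fragment at Hoxb9 was 3.03% in young and 4.49% in aged HSCs, and at Hoxb6 2.76% and 3.85%. Hoxb4 was found in 5.35% of young and 5.32% of aged cells and Hoxb5 in 5.51% and 6.18%. Among single genes in thinned cells, the intervals of the shares overlapped between the ages for all but Hoxb9. How often they fail to overlap over all protein-coding windows was not counted. Hoxb7 was found in 2.17% and 2.72% of thinned cells, a smaller difference than over all its fragments: the log2 ratio at Hoxb7 fell from 0.86 to 0.33 (interval -0.09 to 0.75) in this single random draw.

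Over the whole cluster body, thinned young cells held a mean of 1.07 fragments and aged cells 1.31, and 35.9% of young and 27.9% of aged cells held none. The variance of these counts was 1.06 times the mean at both ages, where counting error alone gives a ratio of 1. The most fragments in any cell were 7 at either age. In cells with 3000 to 8000 in-peak fragments the log2 ratio of the 9 windows was 0.37 (interval 0.22 to 0.51), and in cells with over 8000 it was 0.37 (interval 0.28 to 0.46). Without cells marked as doublets the shares of thinned cells were 21.1% and 24.7%.

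Outside the start-site windows the cluster was also more accessible in aged HSCs, but other annotated starts lie there. They include the start of the coding Hoxb2 transcript, with 500 young and 516 aged fragments, and the RefSeq start of Hoxb8, with 375 and 350. The cluster without these other starts was not tested. The cluster body of 96.8 kb held 12298 young fragments (355 FPM) and 11370 aged fragments (435 FPM), a log2 ratio of 0.29 (interval 0.26 to 0.33), and the body without the start-site windows had a ratio of 0.28 (interval 0.23 to 0.32). In 10-kb tiles from Hoxb9 on, all 10 tiles of the cluster had ratios above 0 and the intervals of 8 excluded 0, with a median of 0.33 against 0.04 over the 55720 tiles of autosomes and X between the lowest and highest level of the cluster tiles. Of those tiles, 28.7% had intervals above 0 and 15.3% below. The tiles of autosomes and X were summed from 500-bp bins, so a fragment with ends in different bins was counted in each. The cluster tiles do not count a fragment again in this way, so the other tiles have somewhat raised levels and narrowed intervals. Of the cluster tiles, 6 lay above the 75th percentile of these tiles of like level (0.22) and 1 above the 95th (0.64). The tile with the starts of Hoxb8 and Hoxb7 had the highest ratio, with 1026 young fragments (29.6 FPM) and 1278 aged fragments (48.8 FPM) and a log2 ratio of 0.72 (interval 0.60 to 0.84). The tile with the Hoxb4 start held the most fragments, 2773 young (80.0 FPM) and 2206 aged (84.3 FPM), and the lowest ratio of 0.08 (interval -0.01 to 0.16). Without the region from the Hoxb9 to the Hoxb6 start the rest of the body had a ratio of 0.21 (interval 0.17 to 0.25).

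**Figure D2:**
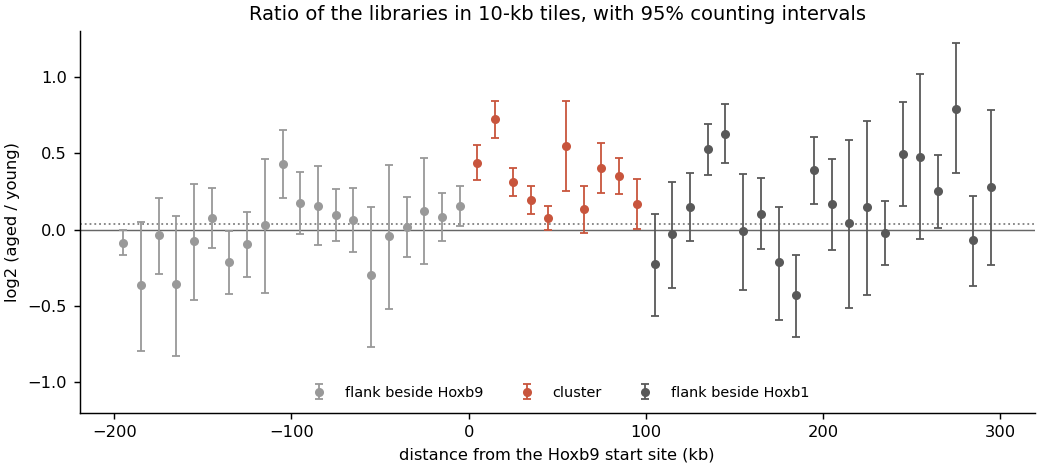
Log2 ratios of aged over young fragments in 10-kb tiles from 200 kb before Hoxb9 to 200 kb after Hoxb1, with 95% intervals of counting error, plotted against the distance from the Hoxb9 start site in kb. Red points are the 10 tiles of the cluster, light grey points the flank beside Hoxb9 and dark grey points the flank beside Hoxb1, and the dotted line marks the median of 0.04 over tiles of like level. The cluster tiles range from 0.08 to 0.72, those of the flank beside Hoxb9 from -0.36 to 0.43 and those beside Hoxb1 from -0.43 to 0.79.

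Split into gene bodies and the gaps between genes, the cluster gave 17 segments, with log2 ratios of aged over young from 0.07 to 1.04. The gap between Hoxb8 and Hoxb7 went from 5.80 FPM per kb in young to 12.0 FPM per kb in aged HSCs, a log2 ratio of 1.04 (interval 0.82 to 1.28). The RefSeq start of Hoxb7, 1019 bp before the GENCODE start, lies within this gap. The gap between Hoxb7 and Hoxb6 went from 2.38 to 4.82 FPM per kb, a log2 ratio of 1.02 (interval 0.75 to 1.29). The body of Hoxb7 had a ratio of 0.69 and the gap between Hoxb4 and Hoxb3, which held few fragments (44 young and 59 aged), a ratio of 0.82. The segments with the lowest ratios were the gap between Hoxb5 and Hoxb4 (ratio 0.07, interval -0.01 to 0.15), the body of Hoxb4 (0.10, interval -0.04 to 0.23) and the body of Hoxb1 (0.12, interval -0.08 to 0.32).

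**Figure D3:**
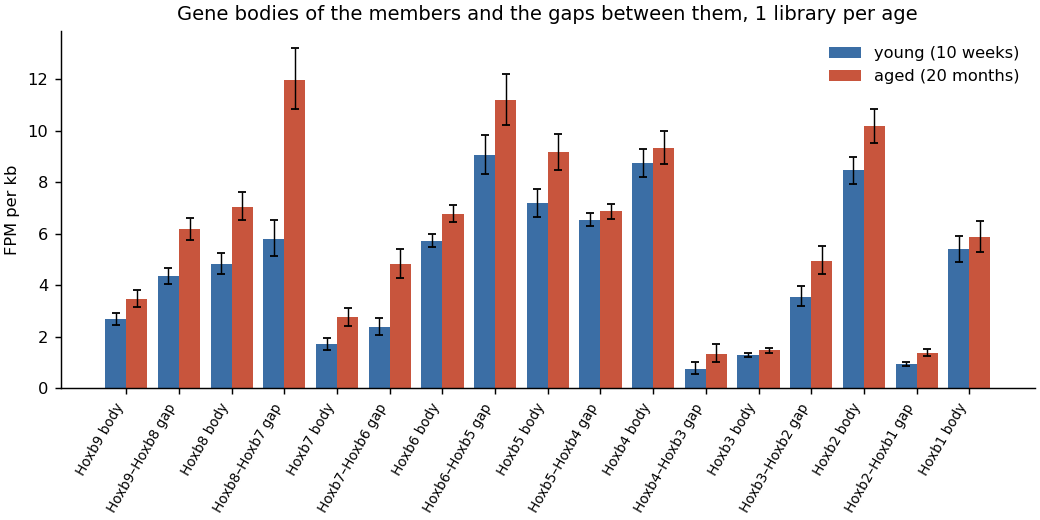
FPM per kb in the bodies of the 9 Hoxb genes and in the gaps between neighbouring genes, in order along the chromosome, for the young (blue) and aged (red) library, with 95% Poisson intervals of counting error. The gap from Hoxb8 to Hoxb7 goes from 5.80 to 12.0 FPM per kb, while in the gap from Hoxb5 to Hoxb4 and in the body of Hoxb4 the libraries lie close together.

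At the resolution of 500-bp bins, 164 of the 195 bins of the cluster held at least 20 fragments. Past 1.5-fold, 60 of them (36.6%) were higher in aged HSCs and 3 (1.83%) lower, where 18.4% of all such bins of the genome were higher and 10.1% lower, and the median ratio was 0.42 against 0.08. The 3 lower bins held 15 young and 7 aged, 17 and 7, and 44 and 21 fragments. Among the 82 bins with at least 100 fragments, the intervals of 38 lay above 0 and of 0 below, where 16.9% of all such bins of the genome lay above and 10.4% below. In the flanks the intervals of 5 of 40 such bins beside Hoxb9 and of 6 of 21 beside Hoxb1 lay above 0, and of 1 in each below. The share of higher bins exceeded that of all bins at each level: 43.4% against 22.3% under 1 FPM, 26 of 52 bins against 18.5% from 1 to 3 FPM, 20.0% against 7.49% from 3 to 10 FPM and 1 of 9 bins against 0.923% above 10 FPM. Bins dense in CpG (GC of at least 50% and a ratio of observed to expected CpG of at least 0.6) were higher in 7 of 28 cases in the cluster and in 4.65% over the genome, and other bins in 53 of 136 cases and in 19.0%.

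Of the 5 bins with the highest ratios among those with at least 100 fragments, 4 lay at the starts of Hoxb8, Hoxb7 and Hoxb6 or just before them. A bin 1155 bp before the Hoxb8 start went from 38 to 72 fragments (log2 ratio 1.31, interval 0.74 to 1.94) and the bin just after that start from 40 to 66 (1.11, interval 0.54 to 1.73). The bin 873 bp before Hoxb7 went from 79 to 146 fragments (1.28, interval 0.89 to 1.71) and the bin at the Hoxb6 start from 157 to 255 (1.102, interval 0.81 to 1.40). The bin before Hoxb7 holds the RefSeq start of that gene. A bin in an intron shared by Hoxb6 and its antisense neighbour Hoxb5os, 4586 bp before Hoxb5, went from 47 to 87 (1.28, interval 0.77 to 1.84). The lowest ratio among bins with at least 100 fragments was -0.30 (interval -0.61 to 0.00), at an exon of Hoxb2 and Hoxb3os with 235 young and 144 aged fragments, and the next 4 lowest lay between -0.22 and -0.09. The 5 bins with the most fragments, at Hoxb4, Hoxb5, in Hoxb6 and in the gap between Hoxb5 and Hoxb4, had ratios from -0.06 to 0.21.

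**Figure D4:**
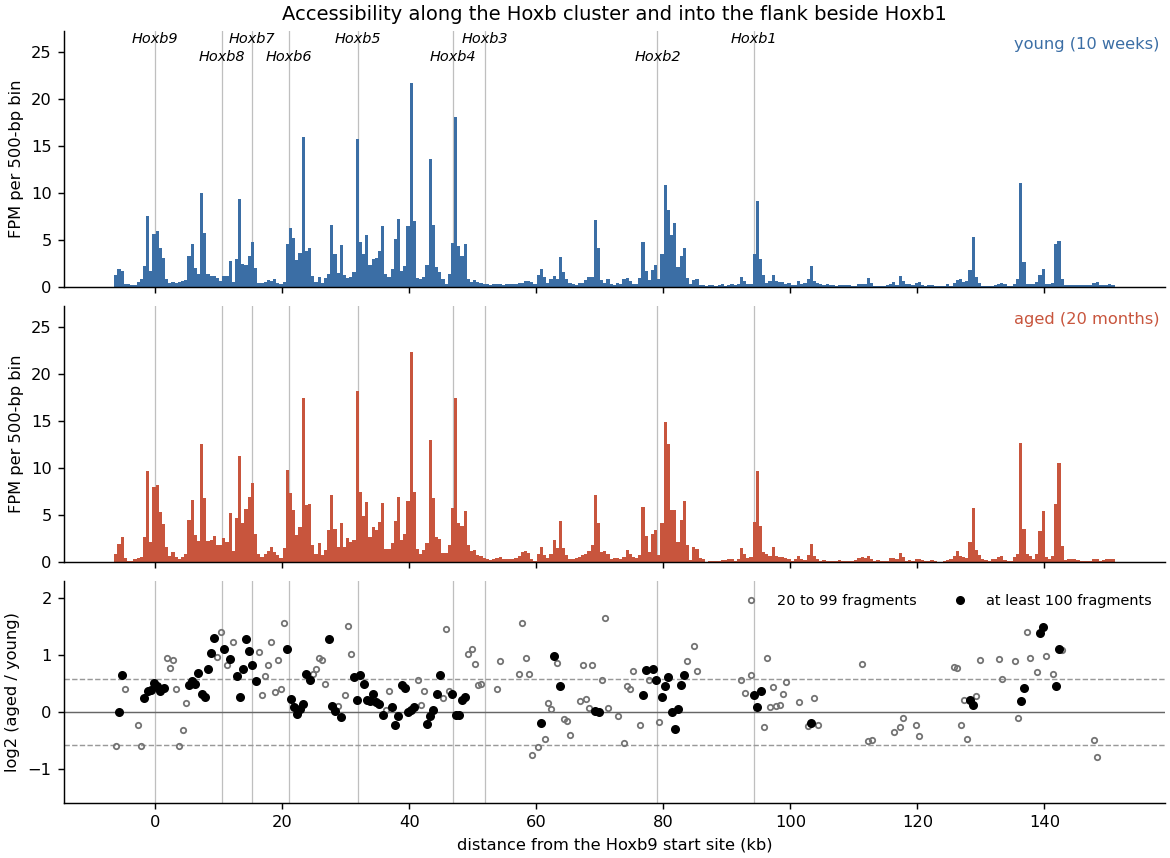
FPM per 500-bp bin in the young (upper, blue) and aged (middle, red) library from just before Hoxb9 into the flank beside Hoxb1, against the distance from the Hoxb9 start site in kb, with grey lines at the 9 start sites and the same scale in both panels. The lower panel gives the log2 ratio of aged over young for bins with at least 20 fragments (open) and at least 100 fragments (filled), with dashed lines at 1.5-fold, and its filled points lie above 0 from Hoxb9 to Hoxb6 and on both sides of 0 around Hoxb4.

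Peaks called on both libraries gave 42 peaks in the cluster, 30 called at both ages, 6 called in young HSCs alone and 6 in aged HSCs alone. Past 1.5-fold, 9 of the 42 (21.4%) were higher in aged HSCs and 0 lower, where 16.7% of all peaks were higher and 10.5% lower, so the share of higher peaks was near that of all peaks. Of the 9 higher peaks, 4 were called in the aged library alone and so entered the set through the library in which they were high. Among the 30 peaks called at both ages, 5 (16.7%) were higher and 0 lower, where 11.6% of all such peaks were higher and 4.58% lower. The intervals of 15 of the 42 lay above 0, 4 of them called in the aged library alone, and of 0 below, where 18.5% of all peaks lay above 0 and 12.6% below. Among those called at both ages it was 11 of 30, against 17% of all such peaks.

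Along the cluster, 14 peaks called at both ages lay before the Hoxb5 start, of which 3 were higher past 1.5-fold and the median ratio was 0.36. After the end of Hoxb4 it was 2 of 8, with a median of 0.30, and in each of these stretches another 2 higher peaks were called in the aged library alone. From the Hoxb5 start to the end of Hoxb4 it was 0 of 8, with a median of 0.00. Over all 10 peaks of that stretch 0 were past 1.5-fold, and ratios ranged from -0.18 to 0.28. Of all peaks called at both ages 11.6% were higher, and counts this small do not set the stretches apart.

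The peak before Hoxb7 printed above, 721 bp from the start, went from 50 young fragments (1.44 FPM) to 104 aged fragments (3.97 FPM), a log2 ratio of 1.45 (interval 0.96 to 1.98), and was called in the aged library alone. It lies after the RefSeq start of Hoxb7. The next peak, at the Hoxb7 start (chr11:96286256-96286660), went from 145 fragments (4.18 FPM) to 231 (8.83 FPM), a ratio of 1.07 (interval 0.77 to 1.39). The peak over the Hoxb6 start (chr11:96292235-96292728) went from 204 fragments (5.88 FPM) to 276 (10.5 FPM), a ratio of 0.84 (interval 0.58 to 1.11). In Hoxb8 an exon peak at chr11:96283200-96283342 had a ratio of 0.91, and in Hoxb6 an intron peak at chr11:96295511-96295694, called in the aged library alone, one of 0.74. The 4 higher peaks of the anterior side had 31 and 51 fragments (chr11:96334161-96334434, ratio 1.11, intron of Hoxb3), 18 and 29 (chr11:96335004-96335154, ratio 1.07, intron of Hoxb3), 55 and 69 (chr11:96350049-96350156, ratio 0.73, intron of Hoxb3os) and 156 and 184 (chr11:96354380-96354759, ratio 0.64, exon of Hoxb3os), those at chr11:96335004-96335154 and chr11:96350049-96350156 being called in the aged library alone.

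Of the 5 peaks with the most fragments, 4 had ratios of 0.20 or less. The intergenic peak between Hoxb5 and Hoxb4 (chr11:96311579-96312251), 6352 bp before Hoxb4, held 841 young fragments (24.3 FPM) and 647 aged fragments (24.7 FPM), a log2 ratio of 0.03 (interval -0.12 to 0.18). The peak over the first part of Hoxb4 (chr11:96318344-96318998) had 18.9 and 18.6 FPM, a ratio of -0.02 (interval -0.20 to 0.15), and the peak in an intron of Hoxb6 (chr11:96294382-96294847) 15.9 and 17.3 FPM, a ratio of 0.12 (interval -0.06 to 0.30). The peak at Hoxb5 (chr11:96303107-96303717) had 17.3 and 19.9 FPM, a ratio of 0.20 (interval 0.03 to 0.37). The peak at the coding Hoxb2 start (chr11:96351451-96352346) stood apart from these, with 16.9 FPM in young and 23.2 FPM in aged HSCs and a ratio of 0.45 (interval 0.29 to 0.62).

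The letters searched above were also looked for in the 300 bases around the middle of each peak. In peaks narrower than this, the searched bases reach beyond the peak, so a match need not lie inside it. The NF-Y letters stood in 13 of the 42 cluster peaks and in 30.02% of all 166195 peaks of autosomes and X, those of SP and KLF in 10 and in 14.4%, and those of USF in 6 and in 5.26%. The RUNX letters stood in 6 and in 28.1%, those of MEIS in 6 and in 20.7% and those of ETS in 6 and in 20.2%. The GATA letters stood in 5 and in 13.8%, those of posterior HOX and CDX in 4 and in 11.8% and those of HOX with PBX in 2 and in 4.03%. The AP-1 letters stood in 0 of the 42 and in 12.2% of all peaks, and the CTCF consensus in 0 and in 4.65%. Direct repeats of the retinoic acid receptor with a gap of 5 or 2 bases stood in 0 cluster peaks and in 0.141% and 0.163% of all peaks. Of the 9 higher peaks 3 held the NF-Y letters, 3 those of MEIS and 2 those of RUNX. The letters of USF, of SP and KLF and of posterior HOX and CDX stood in 1 each. As given above, 4 of these 9 peaks were called in the aged library alone. The shares among higher peaks of the genome were not counted.

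Noncoding genes within the cluster were counted in the same way at starts over 500 bp from those of the 9 genes. At Gm11536, antisense to Hoxb3, 31 young and 51 aged fragments gave a log2 ratio of 1.11 (interval 0.45 to 1.82). Hoxb3os, an antisense RNA, has a pair of annotated starts. The start between Hoxb2 and Hoxb1 went from 192 to 223 fragments (ratio 0.62, interval 0.34 to 0.91) and the start at the end of Hoxb3 from 172 to 150 (0.21, interval -0.12 to 0.53). At the pair of starts of Hoxb5os, antisense to Hoxb5 and Hoxb6, the ratios were 0.22 and 0.01 and neither interval excluded 0. At Mir10a, the gene of the miR-10a-5p printed above, fragments went from 38 to 44, for a ratio of 0.61 (interval -0.04 to 1.28). At Mir196a-1, 6293 bp before Hoxb9 and outside the cluster body, 71 young and 37 aged fragments gave a ratio of -0.52 (interval -1.15 to 0.06).

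The flanks differed from each other. The 200 kb beside Hoxb9 held 9824 young fragments (283 FPM) and 7470 aged fragments (285 FPM), a log2 ratio of 0.01 (interval -0.03 to 0.05), and 24 of its 165 bins with at least 20 fragments (14.5%) were higher past 1.5-fold and 15 (9.09%) lower. The 200 kb beside Hoxb1 held 4752 young fragments (137 FPM) and 4134 aged fragments (158 FPM), a ratio of 0.21 (interval 0.14 to 0.27), with 37 of 113 bins (32.7%) higher and 8 (7.08%) lower. Over the genome 18.4% of bins were higher and 10.1% lower, so the share of higher bins beside Hoxb1 was above that of the genome and near the 36.6% of the cluster. The interval of the flank beside Hoxb9 lay below that of the 9 start-site windows. That of the flank beside Hoxb1 overlapped that of the cluster body, and it lay below that of the 9 windows as counted here but overlapped it in thinned cells (flank 0.17 to 0.36, windows 0.20 to 0.45), in cells with 3000 to 8000 in-peak fragments, with only short fragments, with RefSeq starts (windows 0.23 to 0.37) and after the local density was subtracted from the windows.

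Among the 37 peaks of the flank beside Hoxb9, 4 were higher and 2 lower past 1.5-fold, and 1 of these held over 100 fragments, an intergenic peak at chr11:96170949-96171547 with 155 young and 188 aged fragments (ratio 0.68, interval 0.37 to 1.001). Among the 31 peaks of the flank beside Hoxb1, 6 were higher and 4 lower, and 3 of these held over 100 fragments. Over all peaks 16.7% were higher and 10.5% lower. Most of the higher peaks of each flank were called in the aged library alone, and several lower ones in the young library alone. Such peaks entered the set through the library in which they were high. Those past 1.5-fold with over 100 fragments were called at both ages. A peak in an intron of Gm11529 (chr11:96456933-96457228) was lower, with 79 young and 35 aged fragments (ratio -0.75, interval -1.39 to -0.18), and an intergenic pair was higher. That at chr11:96410941-96411186, 45311 bp beyond the Hoxb1 start, went from 57 young fragments (1.64 FPM) to 114 aged fragments (4.36 FPM), a log2 ratio of 1.39 (interval 0.94 to 1.89), and that at chr11:96413151-96413977, 47812 bp beyond it, from 284 (8.19 FPM) to 369 (14.1 FPM), a ratio of 0.78 (interval 0.56 to 1.01). The peak with the most fragments in this flank (chr11:96407562-96408233) had 11.4 and 13.3 FPM, a ratio of 0.22 (interval 0.00 to 0.43). Among genes of the flanks, Skap1, an adaptor protein of T cell receptor signalling, had a start-site ratio of 0.51 (interval 0.22 to 0.80), with 188 young and 202 aged fragments. Atp5g1, a subunit of mitochondrial ATP synthase, had -0.10 (interval -0.18 to -0.01) with 2755 and 1942 fragments, Ttll6 -0.22 and Hoxb13 0.11, both with intervals that included 0.

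The Hoxb genes were set beside the other Hox clusters, which share the same libraries. The 11 Hoxa genes, whose levels were higher (median 17.9 FPM in young HSCs against 8.57 FPM for Hoxb), summed to a log2 ratio of -0.01 (interval -0.06 to 0.05), with 0 past 1.5-fold in either direction. Hoxa3 was the most accessible Hoxa gene, with 1224 young fragments (35.3 FPM) and 847 aged fragments (32.4 FPM). The 9 Hoxc genes, with a median of 3.63 FPM, summed to 0.32 (interval 0.21 to 0.43), and 1 of them, Hoxc6, was past 1.5-fold with 69 young and 133 aged fragments (ratio 1.34, interval 0.92 to 1.79). The 9 Hoxd genes, with a median of 3.78 FPM and Hoxd3 and Hoxd4 counted over the same fragments, summed to 0.21 (interval 0.09 to 0.33) with 0 past 1.5-fold. The interval of the Hoxb sum lay above that of Hoxa and overlapped those of Hoxc and Hoxd.

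**Figure D5:**
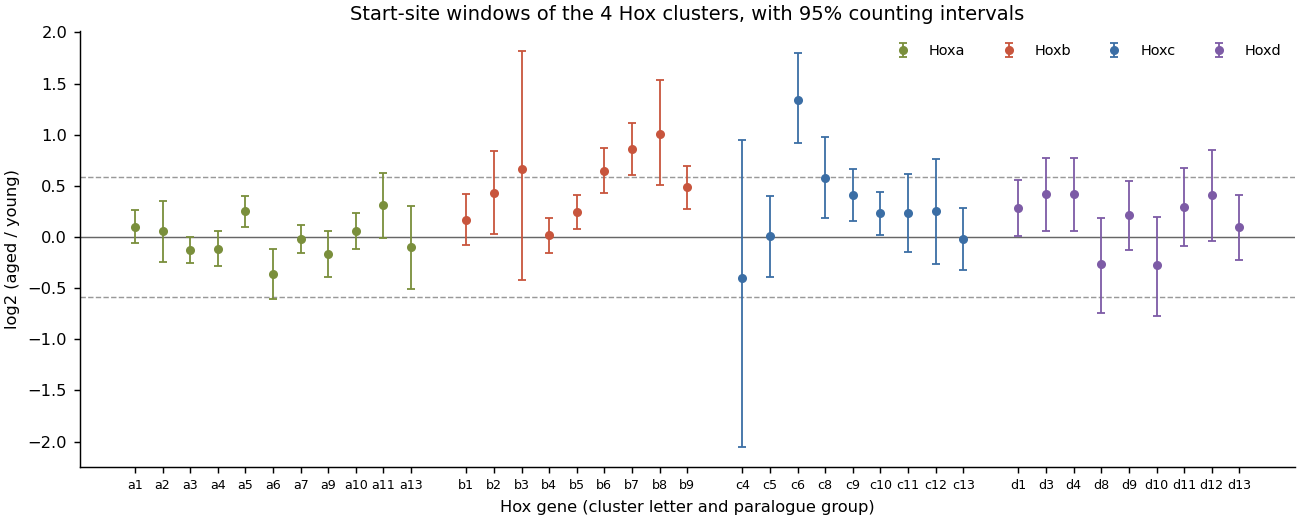
Log2 ratios of aged over young fragments in the start-site windows of the Hox genes with at least 20 fragments, by cluster and paralogue group, with 95% intervals of counting error and dashed lines at 1.5-fold. The Hoxa genes lie around 0, the Hoxb genes lie above 0, and Hoxc6 at 1.34 is the highest point.

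Genes of proteins that work with or on Hox genes were counted from lists. Of 9 genes of TALE partners, 0 were past 1.5-fold in either direction and the median ratio was 0.02. Meis1, a HOX partner in HSCs, held 33.9 FPM in young and 35.3 FPM in aged HSCs. Of 26 genes of Hox regulators (Polycomb and Trithorax proteins, CDX and retinoic acid receptors and others), 23 held at least 20 fragments, 0 were higher and 1 lower past 1.5-fold, and the median ratio was -0.13. Most of these genes were more accessible than the Hoxb genes, and among all protein-coding windows 5.25% were higher and 2.51% lower, but from 25 to 100 FPM 5 of 6655 windows (0.0751%) were higher and 3 (0.0451%) lower. The lower gene was Men1, which encodes menin, a partner of the KMT2A histone methyltransferase, with 2474 young fragments (71.4 FPM) and 970 aged fragments (37.1 FPM), a log2 ratio of -0.94 (interval -1.05 to -0.84). Kmt2a itself had -0.12 (interval -0.23 to -0.01) and Ezh2, the Polycomb methyltransferase, -0.23 (interval -0.35 to -0.11). Over all protein-coding windows from 25 to 100 FPM the median was -0.10, near the ratio of Kmt2a and the median of the list. Over all protein-coding windows 22.6% of intervals lay below 0.

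Library quality was set beside these values. Among fragments in the 9 Hoxb windows, 59.6% of young and 55.5% of aged fragments were of this short kind, against 68.8% and 65.5% over all protein-coding windows. With only these short fragments the 9 windows had a log2 ratio of 0.35 (interval 0.25 to 0.46), and Hoxb8, Hoxb7, Hoxb6 and Hoxb2 were past 1.5-fold. The median enrichment of cuts at start sites was 5.78 in young and 5.30 in aged cells, and the part of this difference in the results was not tested.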

How the data were processed

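The study's libraries were made with the Chromium Next GEM droplet kit, and reads were aligned to mm10, deduplicated and called as cells by the authors with Cell Ranger ATAC. The files deposited by the authors held the counts of read pairs behind each unique fragment, with its position and barcode, and a table of read and fragment counts per barcode. The values were raw counts and no column was left unused (0).

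Called cells with 3000 to 20000 in-peak fragments in the authors' table were kept, 1 library per age. A fragment was counted in a window when at least 1 end lay in it. Peaks were called anew on the kept cells of each library (151-bp windows against the density in the surrounding 10000 bp, q threshold 0.001) and combined, and FPM is scaled to fragments in these peaks. Levels carry exact Poisson 95% intervals, shares exact Clopper-Pearson intervals, and log2 ratios (1 fragment added to each library) intervals from the exact binomial share. Calls were made past 1.5-fold with at least 20 fragments in sum. Doublets were marked from loci covered by at least 3 fragments of a cell and kept.

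Named were all 9 genes, cluster peaks past 1.5-fold or among the 5 with the most fragments, the 5 bins with the most fragments and the 5 highest and 5 lowest ratios among those with at least 100, and listed or neighbouring genes as given. Values of flank peaks, markers, Hoxc6, Men1, Kmt2a, Ezh2 and Meis1 were added after they had been seen, and single values of some listed genes are not reported here. The genes and lists were chosen with earlier results of these data known. Sequences came from RefSeq (GRCm38.p6) and annotation from GENCODE M21. Python 3.11.15, numpy 2.4.6, scipy 1.17.1, pandas 2.3.3, numba 0.67.0 and matplotlib 3.10.9 were used, and the counting was tested on simulated data. The alternatives covered scaling, choice of cells, depth per cell, fragment length, windows, start sites, local background and call rules.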

Additional observations from a re-analysis of the deposited data

How the results depend on the processing

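Of 230 values recomputed for 17 results under 21 planned and 3 added settings, 212 stayed within the interval or within 1.5 times the count given in the report. After subtraction of the local density Hoxb8, Hoxb3 and Hoxb2 gave no value, as no fragments were left, and they are not in this tally. Settings also overlap, as the study's full limits on cells kept 4887 young and 3403 aged cells, nearly the set used here. The summed start-site ratio ranged from 0.30 to 0.48, the highest with 250 bp on either side, and that of the cluster body from 0.21 to 0.31. The lowest body value came from leaving out the region between the Hoxb9 and Hoxb6 starts, a setting chosen after seeing the data, as were the interval rule for calls and the coding Hoxb2 start. The flank beside Hoxb9 ranged from -0.02 to 0.03 and that beside Hoxb1 from 0.17 to 0.27, the highest in thinned cells. The count of genes past 1.5-fold fell from 4 to 1 in thinned cells (Hoxb8), to 1 with RefSeq starts (Hoxb7), to 2 with 1000 bp on either side (Hoxb8 and Hoxb7) and to 2 after subtracting the local density (Hoxb7 and Hoxb6). The RefSeq start of Hoxb3, a window at another place, gave -0.073. The count of higher bins was 33 in cells with 3000 to 8000 fragments and 34 with only fragments shorter than a nucleosome's DNA, which leave fewer bins with 20 fragments, and 30 with 1000-bp bins, of which there are fewer. The difference in the share of cells was 9.55 percentage points without thinning and 5.79 with 1000 bp on either side. Among single genes, thinning gave 0.33 for Hoxb7 and 0.44 for Hoxb1, and 250 bp on either side 0.34 for Hoxb4. The cause of these was not tested. No paired analysis was possible because there was 1 library per age.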
